A study of Oncorhynchus tshawytscha with 15 samples.

Results

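The mildest warm exposure of the experiment, 15°, was compared with the 12° control in gills of juvenile Chinook salmon, on 6 of the 15 RNAseq libraries. The 3 libraries of the 15° group came from fish moved into a bath at 15° for 3 hr and returned to 12° for 1 hr before the gill arches were taken. The 3 control libraries came from fish that were handled in the same way and stayed at 12°. All fish were fall-run fry of the Merced River Hatchery, 5 months post hatch and reared at 12°. Each library is a pool of RNA from 11 fish, so that 33 fish stand behind each group and 66 behind the comparison. The spread between libraries is therefore a spread between pools, run on 3 consecutive days, and holds no value for a single fish. That the replicate number of a label is its day was assumed, and the libraries were sequenced 3 to a lane, but which of them shared a lane is not given in the sources used here. The other libraries belong to 18°, 21°, and 25°, and they are used only to read the same contigs at higher temperatures.

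The members of the comparison are the contigs, the assembled stretches of transcript to which the authors aligned the reads. A contig was kept where at least 3 of the 6 libraries held at least 10 reads, and 145873 of 183740 contigs (79.4%) met this rule. They held between 99.7% and 99.8% of the reads of each library. Just inside the rule, 3139 contigs had exactly 10 reads in their third-highest library and a median of 56 reads over the 6. Just outside it, 2643 contigs had 9 reads there and a median of 51. Contigs carry a number in 1 of 2 name series, KT3A and denovo, and no gene name or sequence in the table used here. They are given by series and number, their roles are left unnamed, and the labelled tissue was not checked against marker genes.

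The gill is the organ through which a fish exchanges gases and ions with the water, so its cells meet a change of water temperature directly. In fish gill, as in other tissues, strong warming is known to raise transcripts for molecular chaperones, the heat shock proteins that refold or hold damaged proteins, through heat shock factors that are inactive at the accustomed temperature.

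Total reads ran from 58654252 to 90869450 per library at 15° and from 77838763 to 86230206 at 12°. The scaling factors that TMM normalization added to these totals lay between 0.961 and 1.03. Levels are given as TMM-scaled CPM, read counts relative to the scaled total of their library. The biological coefficient of variation, edgeR's estimate of the relative spread between pools beyond counting, was 0.239 at 15°, 0.273 at 12°, and 0.258 in the fit of both groups.

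One library of each group stood apart from the other 4. The log2 CPM of 15° replicate 2 and 12° replicate 1 correlated at r = 0.984 across the 145873 contigs, and the other 4 libraries correlated among themselves at 0.986 to 0.991. Between the pair and the 4 the values were 0.967 to 0.978. These are correlations across contigs, which share libraries and depth and are not independent replicates. The pair lay below all 4 other libraries in 28478 contigs (19.5% of those tested) and above all 4 in 22849 (15.7%). It lay below by more than 2-fold in 3844 contigs (2.64%) and above by more than 2-fold in 36 (0.0247%). It lay below by more than 4-fold in 558 contigs (0.383%) and above by more than 4-fold in 0. Those 558 made up 0.0448% of the shortest class of tested contigs (median 166 bp) and 1.45% of the longest class (median 4811 bp).

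The contig of the widest such gap, denovo_contig_62968 (3547 bp), had 8.82, 0.017, and 7.19 CPM in 15° replicates 1 to 3, against 0.152, 5.23, and 10.1 CPM in 12° replicates 1 to 3. Behind the low values stood 1 read in the 15° library and 12 reads in the 12° library. The temperature groups overlapped completely, with 1 library of each far below the rest. Its log2 fold change was 0.05 (standard error 1.29), and the interval reached from a change of -2.88 to 2.99 on the log2 scale. Likewise denovo_contig_49939 (3795 bp) had 18.0, 0.390, and 15.8 CPM at 15°, against 0.379, 12.5, and 25.1 CPM at 12°. For the 558 contigs the median change that the interval could exclude was 4.62-fold, and 0 of them reached an unadjusted p-value below 0.05 in edgeR's quasi-likelihood test. Both values follow from how the 558 were picked, with 1 library of each group far below the rest. What sets 15° replicate 2 and 12° replicate 1 apart was not tested. Some results below are also given without them. Where this is not said, a result at 15° rests on all libraries of the comparison.

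**Figure D1:**
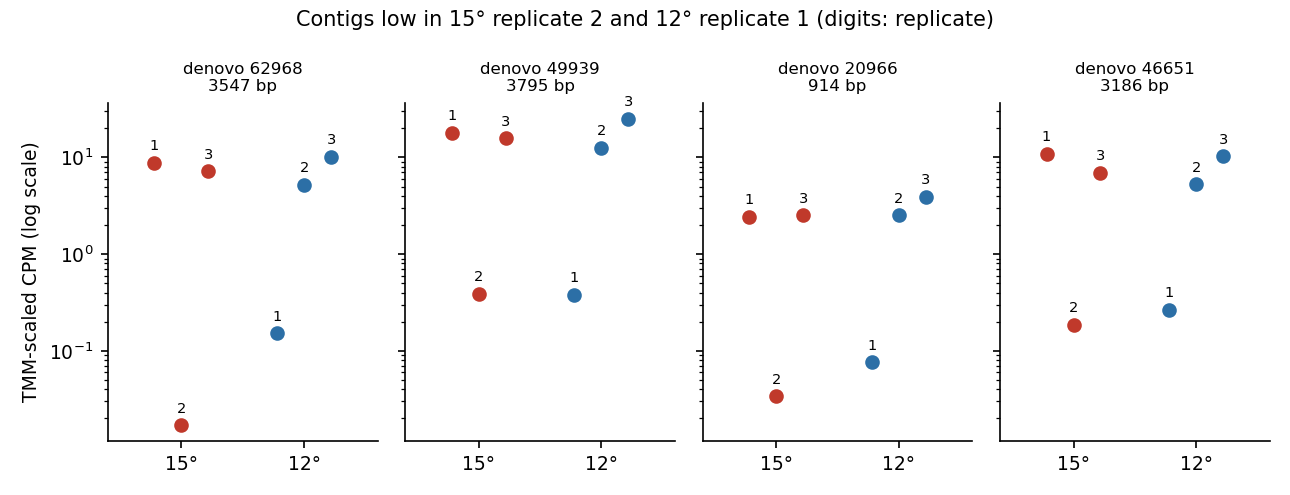
TMM-scaled CPM (log scale) of the 4 contigs with the widest gap between the pair of libraries and the rest, in the 3 libraries at 15° (red) and the 3 at 12° (blue), with the replicate number above each point. In each contig 15° replicate 2 and 12° replicate 1 lie far below the other libraries, for example at 0.390 and 0.379 CPM in denovo_contig_49939, where the other libraries lie between 12.5 and 25.1 CPM.

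No contig was called at 15°. The call required a change above 2-fold and a p-value, adjusted over all contigs by the Benjamini-Hochberg method, below 0.01. By edgeR's quasi-likelihood test 0 contigs were higher and 0 lower at 15° than at 12° (0% of 145873 in each direction), and an adjusted p-value below 0.10 with the same fold gave 0 as well. limma-voom also called 0 in both directions, and DESeq2 called 0 up and 2 down. The smallest unadjusted p-value was 8.87e-05 and the smallest adjusted p-value rounded to 1.00. At an unadjusted p-value below 0.05, 1791 contigs were higher (1.23% of those tested) and 1724 lower (1.18%), and 490 of the first (0.336% of those tested) and 604 of the second (0.414%) lay beyond 2-fold. The unadjusted p-values below 0.05 thus took 2.41% of the contigs, and they took 4.28% when 15° replicate 2 and 12° replicate 1 were left out. Evenly spread p-values would have put 7294 contigs below 0.05, against 3515 found with all libraries. In bulk tissue, fewer cells of a type and less RNA per cell cannot be told apart in any of these values.

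The estimated changes were small for most contigs. The median log2 fold change was -0.01, and 90% of contigs lay between -0.62 and 0.53. Only 2872 contigs had an estimate beyond 2-fold, of which 2309 had a mean below 0.3 CPM. The count of calls alone does not say how large a change these pools could have shown, so the 95% interval of each contig was read for the change it leaves out. The change excluded is the end of the interval farther from 0, and a larger change in either direction lies outside the interval.

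A 2-fold change was excluded in 86198 contigs (59.1%). A change of 1.5-fold was excluded in 31.3% and one of 4-fold in 93.0%. The median contig excluded a change of 1.79-fold. Single intervals are not adjusted for the number of contigs, and an equivalence test that is adjusted placed 89865 contigs (61.6%) within 2-fold of no change at an adjusted p-value below 0.05 (2 one-sided tests with edgeR's estimates). At the other end, 16271 intervals (11.2%) held both a 2-fold rise and a 2-fold fall, so that nothing of that size could be told for them. The intervals of 142391 contigs (97.6%) held no change. Of the 3482 that did not, 1017 lay wholly within 2-fold. Each of these 95% intervals stands alone, and with 145873 of them the number without 0 is no count of changed contigs.

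The size excluded followed the level of the contig. Among the 29349 contigs below 0.3 CPM, with a median of 88 reads over the 6 libraries, the median change excluded was 3.21-fold, and a 2-fold change was excluded in 1.69%. From 0.3 to 1 CPM the median was 2.12-fold and 39.5% of 39200 contigs excluded a 2-fold change. From 1 to 3 CPM it was 1.63-fold and 83.5% of 29429 contigs did. From 3 to 10 CPM it was 1.41-fold and 93.9% of 26337 contigs did. Above that level the gain was slight. The median was 1.30-fold from 10 to 30 CPM, and it was 0.33 on the log2 scale both from 30 to 100 CPM and at 100 CPM or more. The share that excluded 2-fold was 97.1% from 10 to 30 CPM and 97.5% from 30 to 100 CPM. In the 832 contigs of at least 100 CPM it was 94.2%, and a change of 1.5-fold was excluded in 85.8%.

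**Figure D2:**
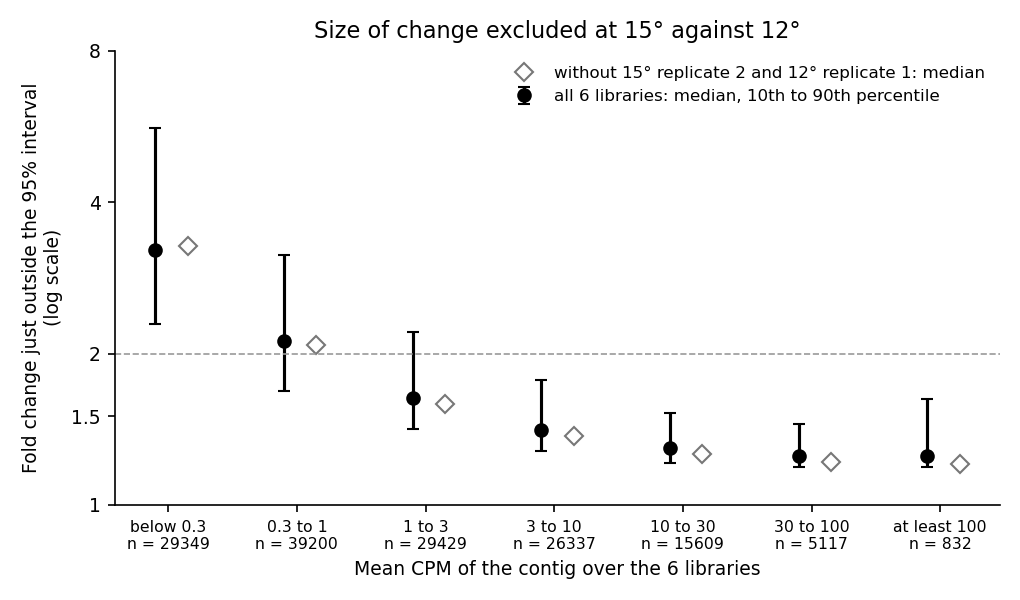
Fold change just outside the 95% interval (log scale) by the mean CPM of the contig over the 6 libraries. Filled circles are medians with bars from the 10th to the 90th percentile of contigs, and diamonds are medians without 15° replicate 2 and 12° replicate 1, with a dashed line at 2-fold. The medians fall from 3.21-fold below 0.3 CPM to 1.30-fold from 10 to 30 CPM and then nearly level off.

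The part of the error that comes from read counting also followed the level. The share of the variance of the log2 fold change that read counting alone gives was 33.1% in the median contig below 0.3 CPM, 20.6% from 1 to 3 CPM, 6.81% from 10 to 30 CPM, and 0.629% at 100 CPM or more. In abundant contigs nearly all of the variance was thus spread between pools. For the typical contig the estimate had to pass 2.40-fold to reach an unadjusted p-value of 0.05 below 0.3 CPM, 1.44-fold from 1 to 3 CPM, and 1.21-fold at 100 CPM or more. A contig that changed alone among the 145873 would have needed an estimate of about 13.9-fold from 1 to 3 CPM and 3.83-fold at 100 CPM or more to pass an adjusted p-value of 0.01 by this approximation from the standard error.

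On the scale of CPM per kb, which allows for length, the median change excluded was 3.32-fold below 0.3 and 1.27-fold at 100 or more. The share did not rise steadily with length. By length alone, 69.7% of contigs in the shortest class (median 166 bp) and 46.3% in the class of median length 397 bp excluded a 2-fold change. In the longest class (median 4811 bp) 90.5% did so. Contigs of the KT3A series (median 579 bp) did so in 52.0% and those of the denovo series (median 1150 bp) in 73.8%.

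Leaving out the pair of libraries that stood apart left 4 libraries and, with fewer of them, still somewhat narrower intervals at most levels. The pair was picked for its distance from the rest of each group, so narrower intervals follow in large part from the picking. A 2-fold change was then excluded in 62.1% of contigs, and in 91.3% of those from 1 to 3 CPM and 97.1% of those at 100 CPM or more. Below 0.3 CPM the share was 0.501%.

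The shifts that were most consistent between pools were sought next. In 6078 contigs (4.17% of those tested) all 3 libraries at 15° lay above all 3 at 12°, and in 5870 (4.02%) all 3 lay below, which makes 11948 (8.19%) in either direction. Such separation also arises between groups that do not differ, so these are no counts of changed contigs. Of the 11948, 5512 upward and 4988 downward shifts were smaller than 2-fold, with median log2 fold changes of 0.40 and -0.41. The 10 of smallest unadjusted p-value in each direction are described as the most consistent small shifts. They were picked by the test itself, so their own p-values are a description. None of them passed the adjusted threshold (adjusted p = 1.00 for each, edgeR's quasi-likelihood test).

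The leading small upward shift was that of denovo_contig_65003, a contig of 553 bp. It had 35.2, 35.3, and 31.9 CPM in 15° replicates 1 to 3, against 22.7, 20.1, and 16.7 CPM in 12° replicates 1 to 3. The groups did not overlap, and the closest pair of libraries differed by 0.49 on the log2 scale. The log2 fold change was 0.78 (standard error 0.13, 95% interval 0.49 to 1.08), from 1307 to 3287 reads per library, with an unadjusted p-value of 2.19e-04 in edgeR's quasi-likelihood test. Its neighbour in the order, denovo_contig_40569 (480 bp), had 30.5, 33.0, and 31.8 CPM at 15°, against 21.5, 19.3, and 15.1 CPM at 12° (log2 fold change 0.77, standard error 0.14). The ratio of these contigs to each other stayed between 0.801 and 0.997 in all 15 libraries. Whether they are pieces of the same transcript was not tested, and they are not counted as independent observations of a response.

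Of the other small upward shifts, denovo_contig_72030 (376 bp) had 12.6, 13.5, and 10.8 CPM at 15°, against 8.29, 7.07, and 5.64 CPM at 12°. It too kept a near constant ratio to denovo_contig_65003, between 0.339 and 0.431 in the 15 libraries. The most abundant was denovo_contig_20032 (6907 bp), with 75.4, 72.4, and 72.1 CPM at 15°, against 56.0, 49.3, and 45.7 CPM at 12°. The groups were again apart, by 0.36 on the log2 scale between their closest libraries. Its log2 fold change of 0.54 (standard error 0.11) had an interval from 0.30 to 0.78, so that a 2-fold rise lay outside it. That it does not hold 0 follows from how the contig was picked. The lowest was denovo_contig_47396 (4901 bp), with 2.58, 2.57, and 2.70 CPM at 15°, against 1.28, 1.31, and 1.55 CPM at 12°. Its pools at 15° differed by less than those at 12°, and the gap between the groups, 0.73 on the log2 scale, was the widest of the 10. The remaining small upward shifts were denovo_contig_69628, KT3A_contig_1378386, denovo_contig_86723, KT3A_contig_522696, and denovo_contig_72277, and the 10 together had log2 fold changes from 0.54 to 0.93. Of the 10, 3 passed the equivalence test at 2-fold. They were picked with estimates below 2-fold and small p-values from the same fit, so this count only describes them. All 10 kept their direction with each library left out, without the pair that stood apart, with other scalings, and on unique reads. The picking largely fixed this, as their groups do not overlap and nearly all their reads are unique.

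**Figure D3:**
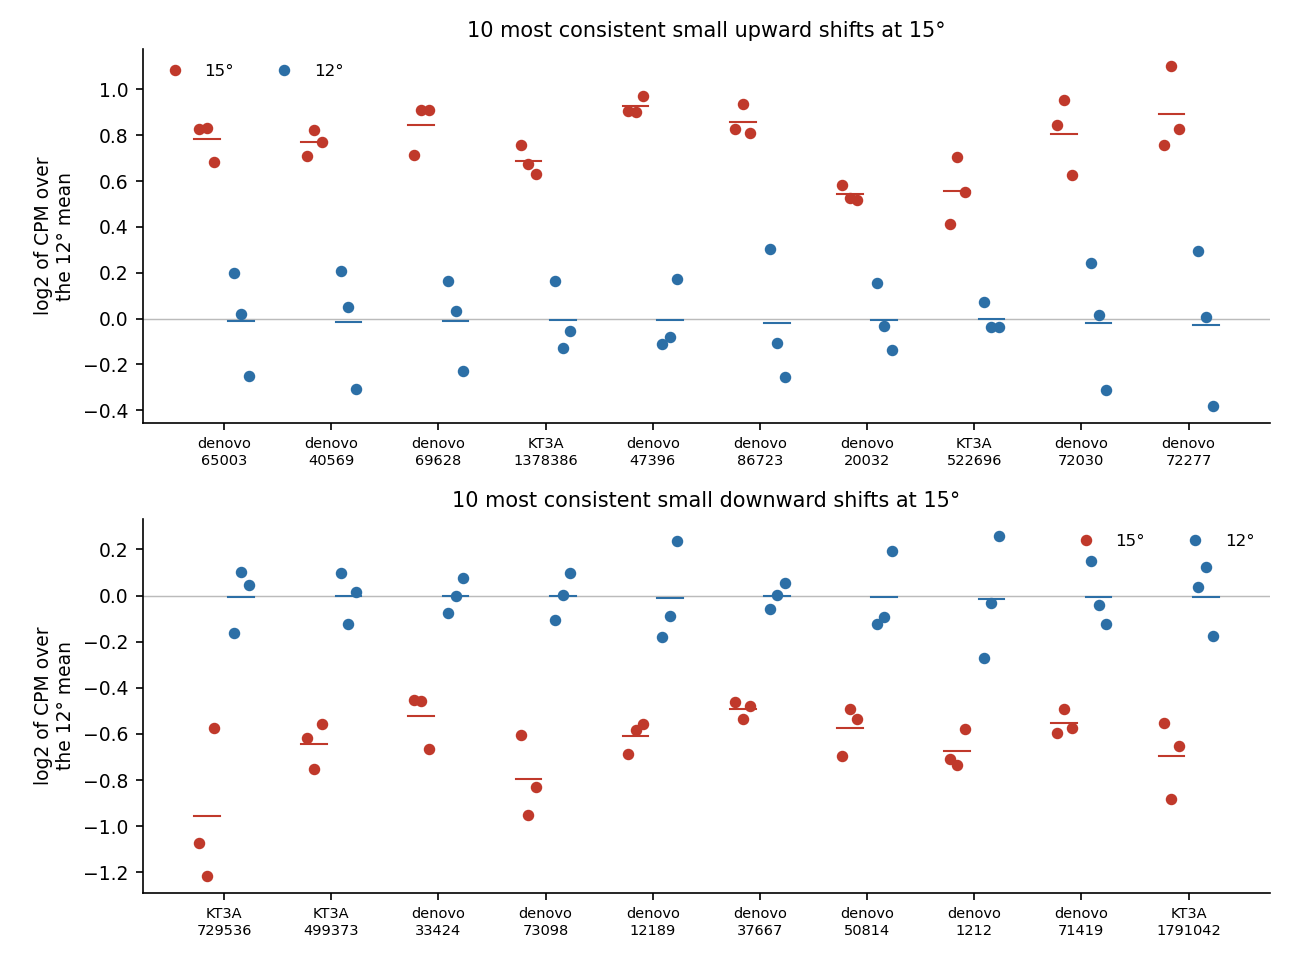
log2 of TMM-scaled CPM over the 12° mean, for the 10 most consistent small upward shifts (above) and the 10 most consistent small downward shifts (below), with 1 point per library at 15° (red, left) and 12° (blue, right) and a bar at the mean of the log2 values. In every contig the 3 points at 15° lie on 1 side of the 3 at 12°, as the rule requires, with log2 fold changes of 0.54 to 0.93 above and -0.93 to -0.49 below.

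The libraries of the higher temperatures played no part in choosing these contigs and can be read for them. Of the 10 small upward shifts, 6 were also called higher at 25° than at 18°, in a comparison that shares no library with 15° against 12° and in which 10.4% of the 139910 contigs tested were called upward (edgeR's quasi-likelihood test, adjusted p-value below 0.01 and above 2-fold). 1 was called lower, where 6.13% of all were, and 3 were not called. By direction alone, 8 of the 10 were higher at 25° than at 18°, against 49.3% of the 135911 contigs tested in both comparisons. As at least 3 of the 6 keep a near constant ratio to each other, the count of separate transcripts behind it may be smaller.

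On the scale of all 15 libraries, denovo_contig_65003 averaged 18.7 CPM at 12°, 32.3 at 15°, 141 at 18°, 351 at 21°, and 945 at 25°. Its libraries did not overlap between neighbouring temperatures at any step, with 129.6 to 147.7 CPM at 18°, 282.5 to 398.2 at 21°, and 885 to 1002 at 25°. denovo_contig_69628 averaged 3.26, 5.85, 12.4, 24.1, and 53.5 CPM over the same temperatures. denovo_contig_20032 averaged 47.6 CPM at 12°, 69.3 at 15°, 88.4 at 18°, 96.8 at 21°, and 242.4 at 25°. Its libraries at 18° and 21° lay close, with 87.0 to 89.5 CPM and 90.02 to 101.5 CPM. Other small upward shifts did not go on rising. KT3A_contig_522696 averaged 19.4 CPM at 12°, 28.5 at 15°, 33.0 at 18°, 29.2 at 21°, and 34.3 at 25°. KT3A_contig_1378386 averaged 5.98 CPM at 12°, 9.64 at 15°, 8.31 at 18°, 11.0 at 21°, and 0.961 at 25°, and was the contig called lower at 25° than at 18° (log2 fold change -3.10, standard error 0.18). Of the 10, 5 were also among the contigs called higher at 18° than at 12° (0.0288% of the 145790 tested there), a comparison that shares the control libraries with the one that picked them.

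**Figure D4:**
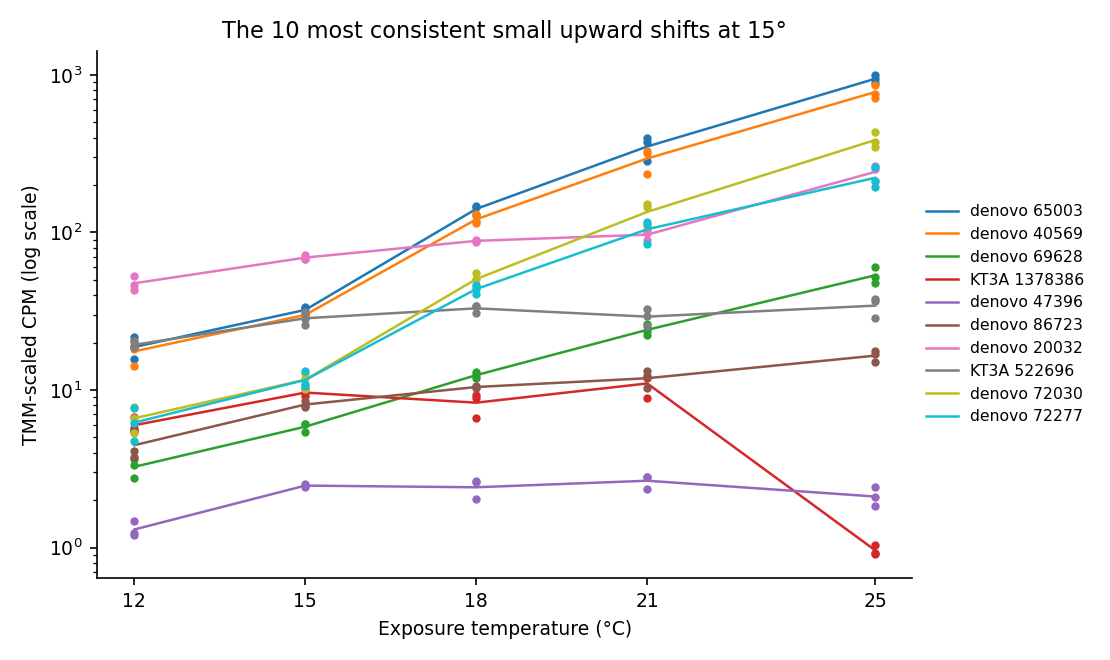
Level (TMM-scaled CPM, log scale) of the 10 most consistent small upward shifts against exposure temperature, with 1 point per library and lines through the means of 3 libraries. Several contigs climb at every step, such as denovo_contig_65003 with means of 18.7, 32.3, 141, 351, and 945 CPM, while KT3A_contig_1378386 ends at 0.961 CPM at 25°.

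In wider classes of p-value, some of which hold named contigs, the same reading gave a smaller difference. Among contigs that were higher at 15° with an unadjusted p-value from 0.01 to 0.05, 208 of 1500 (13.9%) were called higher at 25° than at 18° and 130 (8.67%) lower. From 0.001 to 0.01 the shares were 13.8% and 9.69% of 196. Among the 65754 contigs higher at 15° with a p-value above 0.05 they were 9.98% and 6.29%. Contigs lower at 15° with a p-value from 0.001 to 0.01 were called higher at 25° in 11.6% and lower in 14.5% of 173. Those with a p-value from 0.01 to 0.05 were called higher at 25° in 9.86% and lower in 8.97% of 1349, against 8.95% and 6.16% of the 66919 with a p-value above 0.05. In these classes, calls in both directions at 25° were thus somewhat more frequent than above 0.05. Below 0.001, 8 of 12 upward contigs were called higher at 25° and 1 lower. Of 8 downward contigs below 0.001, 3 were called higher at 25° and 0 lower. The median level of the upward contigs was 0.963 CPM from 0.01 to 0.05 and 1.44 CPM from 0.001 to 0.01, against 1.43 CPM above 0.05. For the downward contigs it was 1.02 and 1.54 CPM in these classes, against 1.36 CPM above 0.05.

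The small downward shifts were read at higher temperature in the same way. Of the 10, 2 were called higher at 25° than at 18° (10.4% of all tested) and 2 lower (6.13%), and 4 of the 10 were higher by direction (49.3% of all). The leading one, KT3A_contig_729536 (161 bp), had 20.6, 18.7, and 29.1 CPM at 15°, against 38.8, 46.5, and 44.7 CPM at 12°. The groups were apart, but 0.429% of its reads aligned to it alone, so its level depends on how reads were shared among similar contigs. The next, KT3A_contig_499373 (2948 bp), had 6.30, 5.73, and 6.57 CPM at 15°, against 10.3, 8.85, and 9.77 CPM at 12°, with a difference of -0.64 on the log2 scale (standard error 0.13). All its reads aligned to it alone, and its closest libraries of the 2 groups differed by 0.43 on the log2 scale.

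The most abundant small downward shift with unique reads was denovo_contig_33424 (2544 bp). It had 37.6, 37.5, and 32.5 CPM at 15°, against 48.8, 51.3, and 54.1 CPM at 12° (log2 fold change -0.52, standard error 0.10, 95% interval -0.76 to -0.29). On the scale of all 15 libraries it averaged 48.6 CPM at 12°, 33.9 at 15°, 50.1 at 18°, 64.5 at 21°, and 251.8 at 25°. Its levels at 15° were thus the lowest of the series. denovo_contig_71419 (1304 bp) had 7.11, 7.64, and 7.22 CPM at 15°, against 11.9, 10.5, and 9.86 CPM at 12°. On the scale of all 15 libraries it averaged 10.2 CPM at 12°, 6.92 at 15°, 6.05 at 18°, 6.32 at 21°, and 31.2 at 25°. denovo_contig_1212 (2215 bp), by contrast, had 9.32, 9.16, and 10.2 CPM at 15°, against 12.6, 14.9, and 18.2 CPM at 12°. On the scale of all 15 libraries it averaged 14.4, 9.03, 6.97, 5.23, and 2.82 CPM at 12°, 15°, 18°, 21°, and 25°. The remaining small downward shifts were denovo_contig_73098, denovo_contig_12189, denovo_contig_37667, denovo_contig_50814, and KT3A_contig_1791042. The 10 together had log2 fold changes from -0.93 to -0.49, kept their direction in the alternatives run for them, and 7 of them passed the equivalence test at 2-fold. The kept direction and the passes follow in large part from how the contigs were picked.

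Larger estimated shifts with separate groups were rarer and rested on fewer reads. Of the 145873 contigs tested, the groups did not overlap in 566 upward and 882 downward shifts beyond 2-fold. Separation at any size took 4.17% of contigs upward and 4.02% downward. It also arises between groups that do not differ, so these are no counts of changed contigs. The 3 of smallest p-value in each direction were taken. KT3A_contig_1408165 (785 bp) had 1.597, 1.95, and 1.70 CPM at 15°, against 0.720, 0.458, and 0.650 CPM at 12°. The lowest library at 15° stood 1.15 above the highest control on the log2 scale, from 101 to 149 reads per library at 15° and 40 to 57 at 12°. Its log2 fold change was 1.52 (standard error 0.24). On the scale of all 15 libraries it averaged 0.576, 1.65, 2.75, 4.65, and 11.2 CPM at 12°, 15°, 18°, 21°, and 25°. denovo_contig_5114 (1819 bp) had 0.407, 0.678, and 0.386 CPM at 15°, from 23 to 40 reads, against 0.088, 0.092, and 0.140 CPM at 12°, from 7 to 11 reads. With so few reads in the controls its log2 fold change of 2.18 had an interval from 1.197 to 3.16. denovo_contig_52762 (1280 bp) had 1.52, 2.15, and 2.20 CPM at 15°, against 0.935, 0.859, and 0.994 CPM at 12°. All 3 larger upward shifts were also called higher at 25° than at 18°, with log2 fold changes of 2.03 to 2.05 there, beside the 10.4% of all contigs given above.

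Among the larger downward shifts, KT3A_contig_1206270 (178 bp) had 1.46, 1.36, and 1.83 CPM at 15°, against 4.02, 3.53, and 3.45 CPM at 12° (log2 fold change -1.24, standard error 0.18). KT3A_contig_1267390 (161 bp) had 1.77, 1.34, and 1.39 CPM at 15°, against 6.64, 3.36, and 5.80 CPM at 12° (log2 fold change -1.80, standard error 0.26). These are the contigs that DESeq2 called, with adjusted p-values of 0.00472 and 3.57e-05 in that test against 1.00 for each in edgeR's. Of their reads 0.653% and 0.470% aligned to them alone. KT3A_contig_1379406 (1078 bp), whose reads were unique, had 0.514, 0.424, and 0.470 CPM at 15°, against 1.09, 1.08, and 1.06 CPM at 12°. On the scale of all 15 libraries it averaged 1.01, 0.444, 0.258, 0.347, and 1.11 CPM at 12°, 15°, 18°, 21°, and 25°. The direction of change at 15° was therefore not kept at 25° in this contig.

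The best measured contigs show how close to no change the comparison could reach. The narrowest interval was that of denovo_contig_6386 (3784 bp), with 48.7, 48.5, and 49.0 CPM at 15°, against 49.9, 49.7, and 49.9 CPM at 12°. Its log2 fold change was -0.03 (standard error 0.09), and a change beyond 1.17-fold lay outside the interval. denovo_contig_2632 (4006 bp) had 72.1, 72.8, and 74.5 CPM at 15°, against 72.1, 73.8, and 72.1 CPM at 12°, with an interval from -0.19 to 0.21 on the log2 scale. denovo_contig_57074 (4643 bp) had 69.1, 67.3, and 69.4 CPM at 15°, against 65.9, 65.8, and 64.5 CPM at 12°, with an interval from -0.13 to 0.27. Its groups did not overlap, nor did those of denovo_contig_6386, yet the differences were 0.07 and -0.03 on the log2 scale. All 3 passed the equivalence test (adjusted p = 2.17e-04 for each, with edgeR's estimates). They were picked for narrow intervals from the same fit, so the passes largely follow from the picking. At 25° against 18°, denovo_contig_57074 was called higher (log2 fold change 1.11, standard error 0.10).

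Contigs called at 25° against 18° were then read at 15° as whole lists. The 25° pools include the fish that became unresponsive or died, which cannot be told apart from heat in these lists. Of the 14560 contigs that were higher at 25°, 12955 were tested at 15°. Their median log2 fold change at 15° was 0.02, beside -0.01 for all contigs tested, and 52.6% were higher at 15°, beside 49.0%. At an unadjusted p-value below 0.05, 243 were higher (1.88%, beside 1.23% of all tested) and 156 lower (1.204%, beside 1.18%), and 0 were called. Within 2-fold lay the intervals of 7580 of them (58.5%). Of the 8574 contigs lower at 25°, 8554 were tested at 15°, with a median log2 fold change of 0.00 and 50.1% higher. In that list 79.9% of intervals lay within 2-fold, and its median level was 2.25 CPM, beside 1.16 CPM for all tested. The median over the rising list was 0.01, -0.01, and 0.04 in 15° replicates 1 to 3, relative to the mean of the controls, with 1 of the 3 libraries below 0. Without 15° replicate 3 the median log2 fold change of the list was -0.0031. Without 12° replicate 1 and 15° replicate 2 together it was 0.030.

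**Figure D5:**
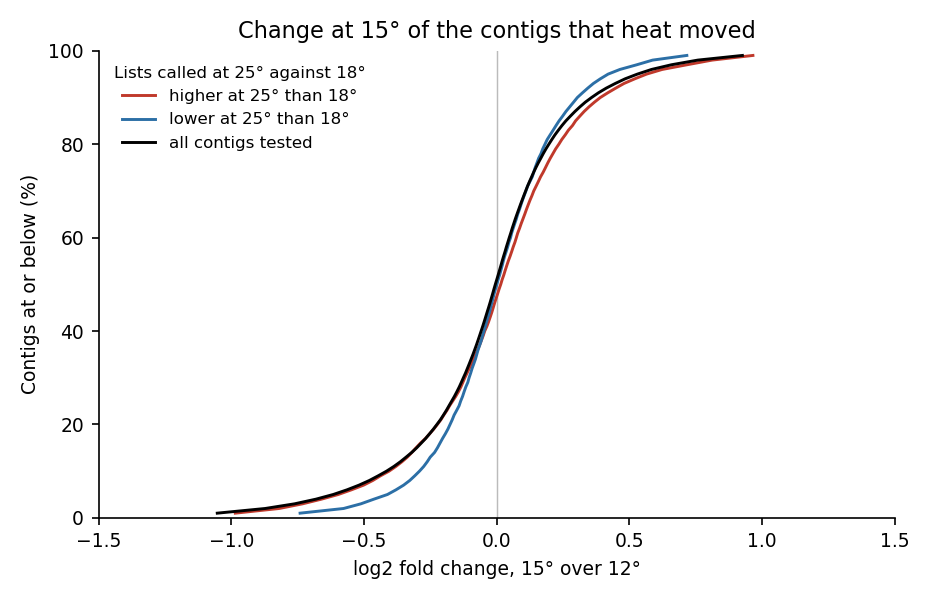
Cumulative share of contigs (%) against the log2 fold change at 15° over 12°, for the contigs called higher (red) and lower (blue) at 25° than at 18° and for all contigs tested (black), drawn from the 1st to the 99th percentile. The curves cross the 50% level near 0, at medians of 0.02, 0.00, and -0.01.

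A smaller list, the contigs higher at 21° than at 18°, held 228 contigs, of which 223 were tested at 15°. Their median log2 fold change at 15° was 0.04, and 60.5% were higher. At an unadjusted p-value below 0.05, 17 were higher (7.62%, beside 1.23% of all tested) and 5 lower (2.24%). The median over this list was 0.03, 0.07, and 0.06 in 15° replicates 1 to 3, against 0.11, 0.02, and -0.11 in 12° replicates 1 to 3, relative to the mean of the controls. The control libraries thus spanned more than the difference between the groups, with 12° replicate 1 above all 3 libraries at 15°. In the contigs higher at 25° than at 21°, of which 9058 were tested at 15°, the median was 0.01, with 1.70% higher and 1.53% lower at an unadjusted p-value below 0.05. For the list of 21° over 18°, the middle 50% of its contigs lay between -0.08 and 0.23 on the log2 scale.

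The contigs of the largest rise at 25° over 18° were not higher at 15°, by the level of their libraries on the scale of all 15. denovo_contig_74187 (259 bp) had 0.071, 0.287, and 2.17 CPM at 15°, against 0.264, 3.94, and 2.06 CPM at 12°. The pools of each group differed by more than 10-fold, and the interval of its log2 fold change, -3.80 to 1.11, left both directions possible. denovo_contig_12135 (494 bp) had 1.13, 1.55, and 6.10 CPM at 15°, against 2.77, 7.44, and 5.85 CPM at 12°. denovo_contig_14547 (3100 bp) had 5.20, 3.70, and 6.01 CPM at 15°, against 2.82, 8.45, and 7.20 CPM at 12°. These contigs averaged 6323, 11836, and 6885 CPM at 25°. The fourth, denovo_contig_604, had 4 to 5 reads per library at 15° and 6 to 23 at 12°, and did not meet the read rule.

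At 18° against 12°, 42 contigs were called higher (0.0288% of 145790). That comparison uses the same control libraries, so a low control value raises a contig in both, and its values are set beside those at 15° without a test. Their median log2 fold change at 15° was 0.43, and 40 of the 42 were higher, beside 49.0% of all contigs tested. At an unadjusted p-value below 0.05, 23 were higher and 0 lower, where the background shares were 1.23% and 1.18%. The groups did not overlap upward in 24 and downward in 1, where the background shares were 4.17% and 4.02%. The mean at 15° lay between those at 12° and 18° in 39. In the median contig the log2 change at 15° was 21.96% of that at 18°. Some of the 42 keep near constant ratios to each other, such as denovo_contig_65003, denovo_contig_40569, and denovo_contig_72030 above. The count of separate transcripts behind the 42 may therefore be smaller.

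On the same 15-library scale, denovo_contig_71903 (255 bp) had the largest rise at 18°. It had 2.06, 2.71, and 1.67 CPM in the 12° libraries, 3.14, 4.14, and 3.32 CPM at 15°, and 42.4, 41.3, and 45.3 CPM at 18°. Means of 369.9 CPM at 21° and 2578 CPM at 25° followed. Its libraries at 15° all lay above the controls and far below those at 18°, and the log2 fold change at 15° was 0.72 (standard error 0.22, 95% interval 0.22 to 1.21). denovo_contig_60596 (1707 bp) had 2.70, 3.37, and 2.02 CPM at 12°, 3.80, 4.32, and 4.22 CPM at 15°, and a mean of 50.7 CPM at 18°. Its log2 fold change at 15° was 0.61 (standard error 0.20). Whether denovo_contig_71903 and denovo_contig_60596 are pieces of the same transcript was not tested. KT3A_contig_675350 (164 bp, 38.5% of reads unique) had 2.70, 2.01, and 2.07 CPM at 12° and 3.72, 3.98, and 3.68 CPM at 15°, with a mean of 17.7 CPM at 18°. In KT3A_contig_866862 (176 bp, 0.893% of reads unique) the groups overlapped, with 2.08, 1.68, and 1.47 CPM at 12° and 4.34, 1.86, and 4.60 CPM at 15°. None of these 4 was called at 15° (adjusted p = 1.00 for each, edgeR's quasi-likelihood test).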

How the data were processed

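The authors trimmed the reads (Cutadapt), assembled contigs of at least 100 bp from the pooled reads, and mapped each library to that assembly with CLC Genome Workbench. The counts as deposited are whole reads per contig, not normalized, as total reads and as unique reads. Total reads were used, and unique reads as an alternative. Among 98 deposited columns, 66 were left unused, including RPKM values, group means, and the authors' fold changes, test statistics, and p-values. Libraries were grouped by the temperature in their labels, 3 at 15° and 3 at 12°, and totals were 58654252 to 90869450 reads. The precision of each value is given by its 95% interval.

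The read rule (10 or more in 3 or more libraries) was applied before testing with edgeR 4.0.16 in R 4.3.3 (TMM normalization, glmQLFit, glmQLFTest). A call needed a change above 2-fold and a p-value below 0.01 after Benjamini-Hochberg adjustment, the thresholds of the study, whose test on proportions was replaced here by a test on counts. With its own test the study reported a few contigs up and a few down at 15°. The 95% interval used a Wald standard error from the fitted weights, not below the Poisson standard error, and the t quantile at the fit's 8.81 degrees of freedom. Equivalence was tested by 2 one-sided tests at 2-fold, adjusted over all contigs. The heat lists come from 25° against 18°, fitted in the same way. Levels beyond 15° use TMM over all 15 libraries. The methods were tested on simulated data with the same spread for every contig and no pair of libraries standing apart. How the intervals hold with such a pair was not tested.

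Contigs were named by rule. The rule took every contig past the threshold, the 10 small shifts of smallest p-value in each direction among contigs whose groups did not overlap, the 3 larger shifts in each direction, the 3 narrowest intervals, and the 4 largest rises of 18° over 12° and of 25° over 18°. Contigs named for the pair of libraries that stood apart, and that pair itself, were chosen after their values were seen. The comparison, lists, and tests were chosen with earlier results of these data known. Alternatives were other scalings, filters, thresholds, unique reads, contigs of at least 300 bp, limma-voom 3.58.1, DESeq2 1.42.0, the 15 libraries fitted jointly, a block by replicate number, and each library left out. Calculations for figures used Python 3.11.15 with matplotlib 3.10.9. RefSeq gene names could not be joined to contig numbers, and no sequence is printed.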

Additional observations from a re-analysis of the deposited data

How the results depend on the processing

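The counts of 0 called contigs in each direction held with other scalings, filters, unique reads, longer contigs, limma-voom, all 15 libraries in 1 fit, and an adjusted p-value below 0.10. Without the fold threshold the counts were also 0. They did not hold with the DESeq2 Wald test (0 up, 2 down) or with an unadjusted p-value below 0.05 and above 2-fold (490 up, 604 down). With each library left out in turn, calls stayed at 0 to 0 in both directions, contigs that exclude a 2-fold change ranged from 72209 to 82052, and those passing the equivalence test from 71992 to 84913. Without 12° replicate 1 and 15° replicate 2 together, chosen after seeing the data, the counts were 90649 and 94554, unadjusted p-values below 0.05 numbered 6237 against 3515, and 0 contigs were called.

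Same-numbered libraries deviated together in 1 of 3 pairs. The main fit did not pair the libraries by number, although the number was assumed to be the day. Across 77324 contigs of at least 1 CPM, the correlations of their deviations from the group means were -0.57, -0.23, and 0.54 for replicates 1 to 3. The deviations of 3 libraries from their own mean are tied to each other, so these values cannot decide on an effect of the day. With the replicate block, 0 contigs were called in either direction. A 2-fold change was then excluded in 79940 contigs, against 86198 in the main fit, and 82221 passed the equivalence test, against 89865.

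Directions under alternatives were read for the contigs named for small shifts, larger shifts, and narrowest intervals. The shifts were picked for separate groups, which largely fixed their direction. Of 345 values of these contigs, 344 kept their direction. The exception was denovo_contig_2632, which ranged from -0.0040 (without 15° replicate 3) to 0.022 (without 12° replicate 2) with each library left out. Unique reads gave no value for KT3A_contig_729536, KT3A_contig_1206270, and KT3A_contig_1267390, which have too few. Medians of the heat lists lay within 0.04 of 0, except for the list lower at 21° than at 18°, which holds 1 contig, at -1.15. With 3 pools a side, a 2-fold change was mostly not excluded in contigs below 0.3 CPM. Detection was limited at every level. By the approximation from the standard error, a typical contig that changed alone needed more than 2-fold to be called in each class. The least was 3.67-fold, from 30 to 100 CPM.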

Other observations

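Contigs without reads in a whole group were counted, but 12° replicate 1 largely fixed the outcome. No read was counted at 15° in 2329 contigs that had reads at 12°, and no read at 12° in 11 contigs that had reads at 15°. Of the 2329, 1002 had reads in 12° replicate 1 alone, with a median of 2 and at most 13. The libraries at 15° detected 177769, 164580, and 174396 contigs, against 183630, 175381, and 175503 at 12°. With a read on nearly every contig of the table, 12° replicate 1 alone kept the count for 12° small. Depth differed too, with 90869450, 60429120, and 58654252 total reads in 15° replicates 1 to 3. The 12° libraries held 77838763 to 86230206. The difference between 2329 and 11 is therefore no measure of an effect of 15°. A single contig, KT3A_contig_1563799 (503 bp), had no read at 15° and at least 10 reads in each control, with 0, 0, and 0 reads in 15° replicates 1 to 3, against 34, 10, and 18 reads in 12° replicates 1 to 3. At a floor of 3 reads per library this is at least 5.80-fold lower at 15° (unadjusted p = 8.48e-04, adjusted p = 1.00, edgeR's quasi-likelihood test). It had 5, 12, and 5 reads at 18°, 2, 3, and 4 at 21°, and 23, 15, and 14 at 25°, so that its reads at 21° were also few.

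Contigs with less than 50% unique reads were over-represented among low p-values. Of 1575 such contigs, 6.98% had an unadjusted p-value below 0.05, against 2.36% of the 144298 others. They had a median length of 166 bp, against 716 bp.

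Without 12° replicate 1 and 15° replicate 2, 3 contigs reached an adjusted p-value below 0.10 and a change above 2-fold (edgeR's quasi-likelihood test), and all 3 were named after their values were seen. KT3A_contig_1381174 (292 bp) had 929, 465, and 234 reads at 15°, against 273, 0, and 0 reads at 12°. KT3A_contig_729139 (157 bp) had 2.86, 8.61, and 2.05 CPM at 15°, against 2.27, 9.69, and 11.1 CPM at 12°, and KT3A_contig_948202 (160 bp) had 7.88, 12.7, and 7.47 CPM at 15°, against 6.62, 2.83, and 2.62 CPM at 12°. Of their reads 0.693% and 0.360% aligned to them alone. In KT3A_contig_1381174 the reads were unique, and 2 of the 3 control libraries held none.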
